A study of Mus musculus with 32 samples.

Results

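The miR-106b/93/25 cluster is a group of 3 microRNA hairpins in an intron of Mcm7, the gene of a subunit of the replicative DNA helicase. Its mature products were taken as the rows of the mouse small RNA table named mmu-miR-106b-5p, mmu-miR-106b-3p, mmu-miR-93-5p, mmu-miR-93-3p and mmu-miR-25-3p, which are 5 of the 1513 miRNAs in the table. The choice used names only and no measured value. The remaining arm, miR-25-5p, was outside the chosen set and is given by its level alone. The species prefix is left out below.

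The 32 libraries came from female nude mice (BALB/cSlc-nu/nu) aged 8 weeks and the ID8-T6 line, a subclone of the C57BL/6-derived mouse ovarian cancer line ID8 that metastasises readily in the peritoneum. In the intraperitoneal (IP) model, with 3 libraries per group, extracellular vesicles (EVs) were taken up from the moist peritoneum by sheets of cellulose nanofiber (CNF) in mice that had received ID8-T6 cells (tumor EVs) or only PBS (normal EVs), on day 14 and before ascites was apparent. The same model gave tumor tissue and normal tissue, and the normal tissue was ovary per the study's methods. In the orthotopic (OT) model, with 5 libraries per group, ID8-T6 cells were placed in the left ovarian bursa and CNF sheet EVs were taken on day 4 and on day 0 from the liver surface and the pelvic peritoneum. Where the study names the liver surface the sample labels read diaphragm, and the study's name is used here. The 20 OT libraries carry 2 library series codes, NGS001 for replicates 1, 3 and 4 and NGS002 for replicates 2 and 5, whose meaning the labels do not give. Nothing states that the libraries of a group came from separate mice. The study's reporting summary says that small RNA sequencing samples were replicated 3 times at 1 spot, without naming the samples meant. The p-values therefore measure the spread between libraries, which may be technical. Nude mice lack most mature T cells, and the implanted line is a single subclone.

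A miRNA hairpin is cut by Drosha and Dicer into a duplex, of which 1 arm is usually kept in Argonaute as the guide and the other mostly degraded. The hairpins of a cluster are made from 1 primary transcript, yet each arm is processed, loaded, degraded and exported at its own rate, so the mature levels need not follow each other. The miR-106b/93/25 cluster is a paralog of miR-17-92 and miR-106a-363, is transcribed with Mcm7, a target of E2F factors, and is known for restraining Cdkn1a (p21) and Bim transcripts. Bases 2 to 8 of a mature miRNA, the seed, are the main determinant of the transcripts it binds.

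The mature sequences fell into seed groups that cut across the cluster, and they are shown so that each member can be set beside its relatives by seed. Each is written from the 5′ end with the seed in capitals, followed by 3 miRNAs of the paralogous clusters that share a seed with a member. All 5 members were matched by name to RefSeq miRNAs of mouse build GRCm38.p6.
miR-106b-5p: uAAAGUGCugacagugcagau
miR-93-5p: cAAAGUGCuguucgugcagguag
miR-17-5p: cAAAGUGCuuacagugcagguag
miR-20a-5p: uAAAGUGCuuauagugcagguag
miR-25-3p: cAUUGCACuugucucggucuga
miR-92a-3p: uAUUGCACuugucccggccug
miR-106b-3p: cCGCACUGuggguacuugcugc
miR-93-3p: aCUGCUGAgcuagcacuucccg
miR-106b-5p and miR-93-5p had the seed AAAGUGC in common and differed at 5 of the 21 bases compared. Of the miRNAs in the table with a sequence, 6 others carried the seed of miR-106b-5p, among them miR-93-5p, and 4 others carried that of miR-25-3p. No other miRNA carried the seed of miR-106b-3p or miR-93-3p. The closest other sequences differed from miR-106b-5p, miR-93-5p and miR-25-3p by 3 bases each. As reads with up to 2 mismatches were counted, and the handling of reads that fit several miRNAs was not given in the sources used here, a part of these counts could belong to the relatives named.

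The 3 hairpins are shown to place the measured arms, which are in capitals, and they are read 5′ to 3′ along the minus strand of chromosome 5.
Mir106b, chr5:138165737-138165818: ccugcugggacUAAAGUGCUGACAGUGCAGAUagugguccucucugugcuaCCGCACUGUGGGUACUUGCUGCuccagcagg
Mir93, chr5:138165523-138165610: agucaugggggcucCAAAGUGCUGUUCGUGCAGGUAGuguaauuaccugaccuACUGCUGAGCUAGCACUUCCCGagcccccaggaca
Mir25, chr5:138165321-138165404: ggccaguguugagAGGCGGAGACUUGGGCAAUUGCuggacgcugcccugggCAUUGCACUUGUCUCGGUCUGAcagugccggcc
They lay within 498 bases, chr5:138165321-138165818, in intron 13 of the 15-exon protein-coding transcript Mcm7-201, on the same strand as Mcm7 (GENCODE M21 on GRCm38, chr5:138164583-138172422). Mir93 and Mir25 also lay in exon 1 of the retained-intron transcript Mcm7-202, which Mir106b did not overlap. Mcm7 mRNA itself was not measured in these small RNA libraries.

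Levels are in RPM, reads per 1000000 miRNA reads of a library. Depth was lowest on day 4, with 176124 to 661582 reads per library on the liver surface and 132483 to 410549 on the pelvic peritoneum, against 483705 to 2540577 reads in the other groups. At the shallowest library 1 read was 7.55 RPM, so only miR-93-3p and miR-25-5p were near the limit of detection. The summed level of 7 red blood cell miRNAs (miR-451a with the arms of miR-144 and miR-486) spanned a wide range within groups, 3459, 6049 and 134765 RPM in normal EVs 1, 2 and 3 and 792 to 56565 RPM in EVs of the pelvic peritoneum on day 0, and it is given beside the results it moved with. Fewer cells of a type and less miRNA per cell cannot be told apart in such bulk samples. The ovary label was checked with the gonadal miRNA miR-202-5p, picked after its values were seen, which had 568, 599 and 1008 RPM in ovary and at most 12.6 RPM in the 26 EV libraries. Tumor tissue replicates 1 and 2 had 0 and 2.07 RPM of it, but tumor tissue replicate 3 had 619 RPM, a level of ovary. The calls of members that involve tumor tissue are therefore also given without that library. Ratios, sums and marker lists are given with it.

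miR-25-3p was the most abundant product in each of the 32 libraries, at 1770 to 17458 RPM with a median of 5510 RPM. miR-93-5p followed at 316 to 4452 RPM (median 1324), then miR-106b-3p at 209 to 1973 RPM (median 640) and miR-106b-5p at 66.3 to 1965 RPM (median 467). The passenger arms of the Mir93 and Mir25 hairpins were rare. miR-93-3p lay between 3.86 and 34.6 RPM, on 2 to 42 reads a library, and miR-25-5p between 2.78 and 34.1 RPM, on 1 to 25 reads. In tumor EVs miR-25-3p ranked 26, miR-93-5p 33, miR-106b-5p 53 and miR-106b-3p 84 by mean among the miRNAs of the table. Levels of different miRNAs also carry ligation and amplification biases of small RNA libraries, so the order between members is that of reads.

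**Figure D1:**
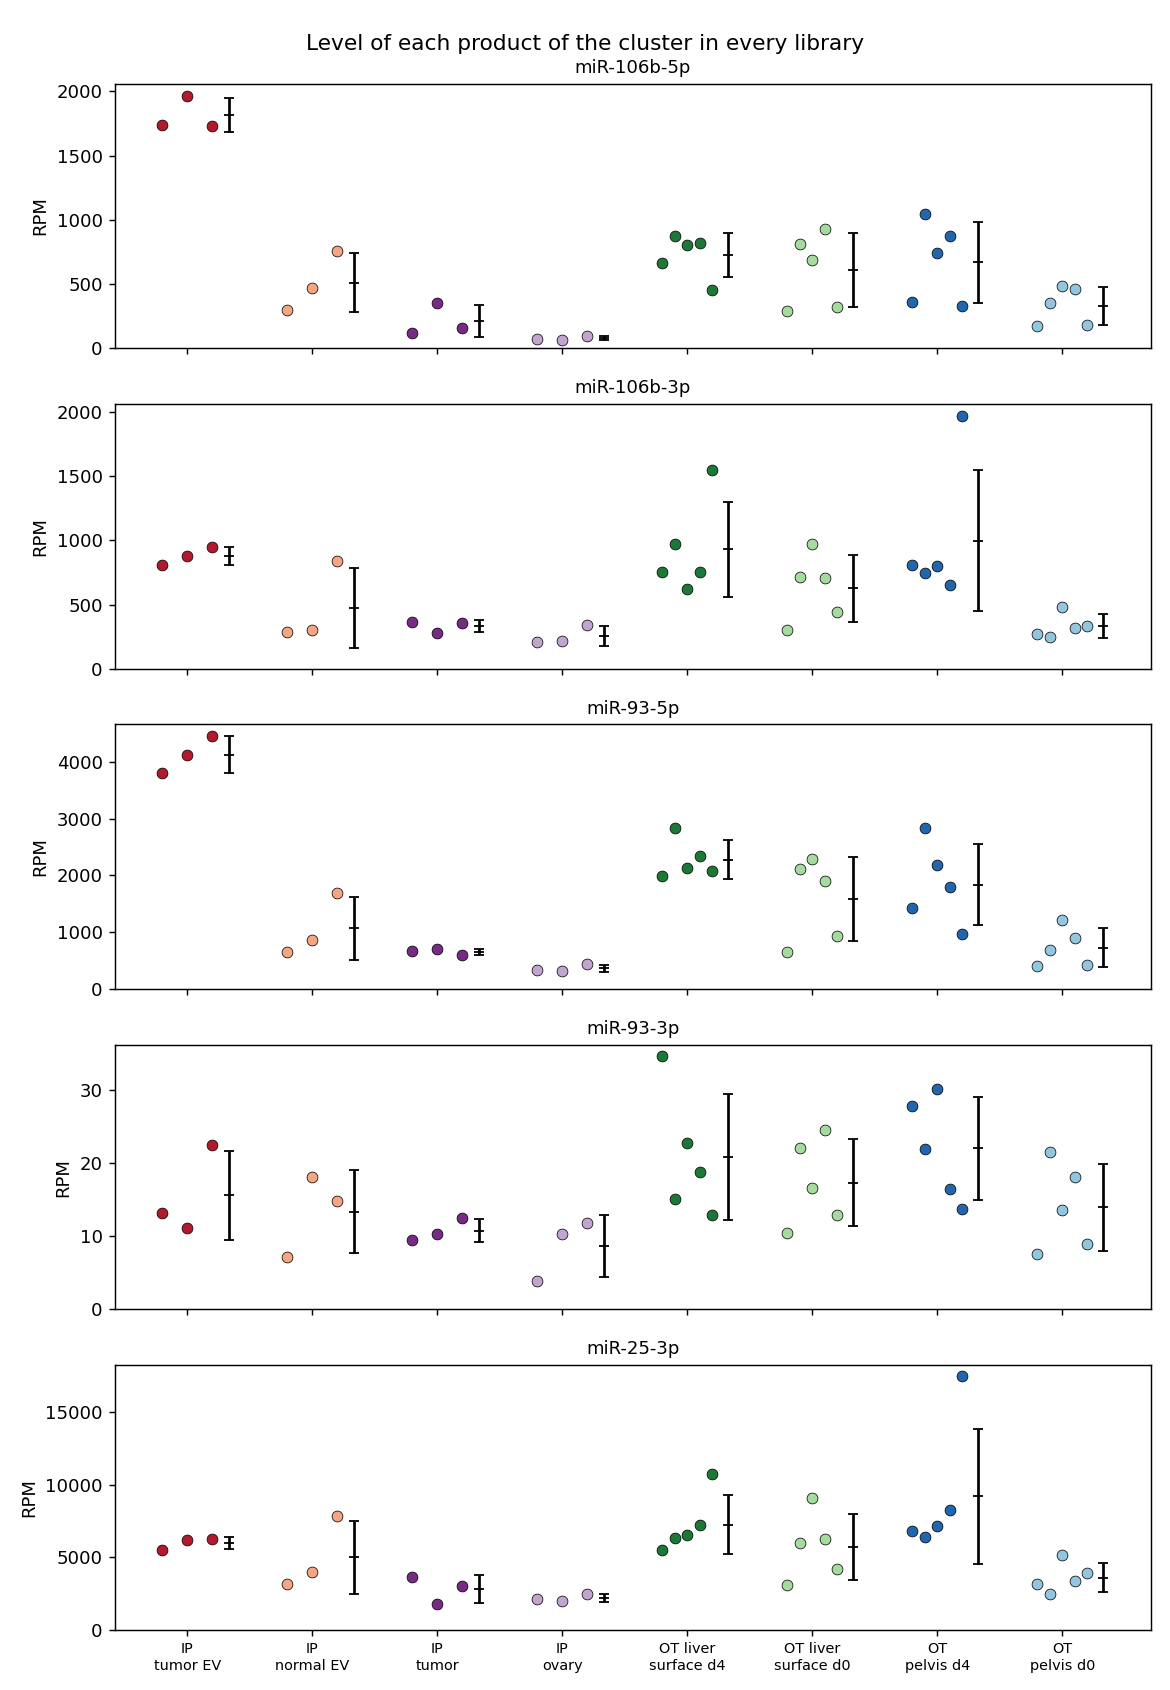
RPM of the 5 members in the 32 libraries, 1 panel per member with its own linear axis from 0. Points are libraries in the order of their replicate numbers, and the bar beside each group is its mean with 1 SD (n = 3 in IP groups, n = 5 in OT groups). miR-106b-5p and miR-93-5p are highest in tumor EVs, at 1732 to 1965 and 3808 to 4452 RPM, whereas the highest library of miR-25-3p and of miR-106b-3p is pelvic peritoneum day 4 replicate 5.

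The order of the groups differed between members. miR-93-5p was highest in tumor EVs at 4128 ± 322 RPM (SD, n = 3), followed by the liver surface on day 4 at 2276 ± 343 RPM (n = 5), and their libraries did not overlap. Lower means followed on the pelvic peritoneum on day 4 (1837 ± 714 RPM), the liver surface on day 0 (1580 ± 739), normal EVs (1068 ± 548), the pelvic peritoneum on day 0 (726 ± 346), tumor tissue (659 ± 54.6) and normal ovary (365 ± 63.6). Among these, neighbouring groups overlapped in their libraries, apart from tumor tissue and ovary. miR-106b-5p gave the same order, with 1813 ± 132 RPM in tumor EVs and 79.2 ± 14.5 RPM in ovary.

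miR-25-3p and miR-106b-3p were ordered in another way. Their means were highest on the pelvic peritoneum on day 4, at 9216 ± 4656 and 996 ± 549 RPM, then on the liver surface on day 4, at 7256 ± 2033 and 931 ± 368 RPM, and only then in tumor EVs, at 6000 ± 420 and 878 ± 71.9 RPM. They were lowest in ovary, at 2182 ± 262 and 255 ± 75.2 RPM. Every neighbouring pair of groups in these orders overlapped. Mean miR-93-3p was lowest in ovary, at 8.67 RPM, and highest on day 4 of the pelvic peritoneum, at 22.03 RPM.

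The first comparison asked how EVs of the peritoneum differ between tumor-bearing and normal mice. The members that share the AAAGUGC seed were higher in tumor EVs, while miR-25-3p, the most abundant product, did not pass the test. miR-93-5p, a guide of the miR-17 family, had 3808, 4126 and 4452 RPM in tumor EVs, against 656, 858 and 1690 RPM in normal EVs. miR-106b-5p, the 5p arm of the first hairpin, had 1742, 1965 and 1732 RPM in tumor EVs, against 302, 472 and 755 RPM in normal EVs. The lowest tumor library stood above the highest normal library for both. Their log2 fold changes, on the log2(RPM + 10) scale, were 2.05 (SE 0.35, adjusted p = 0.00185 by limma) and 1.90 (SE 0.33, adjusted p = 0.00220).

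The other arms did not pass the rule used here. miR-106b-3p, the opposite arm of the same duplex as miR-106b-5p, had 806, 879 and 950 RPM in tumor EVs, against 282, 303 and 836 RPM in normal EVs. The difference was 1.06 on the log2 scale, with an SE of 0.42 and an adjusted p of 0.0602 by limma. miR-25-3p had 5518, 6199 and 6284 RPM in tumor EVs, against 3171, 3948 and 7864 RPM in normal EVs (0.37, 95% interval -0.41 to 1.16, adjusted p = 0.362). Both overlapped through normal EV replicate 3, the library with the red blood cell sum of 134765 RPM. Without it miR-106b-3p was called (1.55, adjusted p = 0.000147), and miR-93-5p and miR-106b-5p had 2.44 and 2.23. miR-25-3p then had 0.76 (adjusted p = 0.00293), past the p threshold and under the fold threshold. miR-106b-3p was also called when replicate numbers entered the fit as a block, at an adjusted p of 0.0472. Tumor and normal libraries of equal number came from different mice, so this block does not stand for a mouse. miR-93-3p changed by 0.14 (adjusted p = 0.664).

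A change was called throughout when its log2 size exceeded 1 and its adjusted p was below 0.05, and 2 of the 5 members were called higher in tumor EVs. Of all 378 miRNAs tested, 16.1% were called higher. The libraries of 2 members did not overlap, with tumor EVs higher, against 23.8% of all miRNAs. The median of the members was 1.06, beside -0.53 for all miRNAs, and the median-of-ratios scaling raised that overall median by 0.51 and the changes of miR-93-5p and miR-106b-5p to 2.64 and 2.48. The red blood cell list showed 0 of 7 called, with sums of 4525 to 9228 RPM in tumor EVs and 3459 to 134765 RPM in normal EVs. Several other marker lists were lower in tumor EVs, where 136 of all 378 miRNAs tested were called lower. All 4 leukocyte miRNAs were called lower, with sums of 3830 to 4082 RPM in tumor EVs and 11964 to 36909 RPM in normal EVs, as were all 5 epithelial miRNAs (299 to 609 RPM in tumor EVs and 2006 to 3856 RPM in normal EVs) and all 3 muscle miRNAs (1079 to 2129 RPM in tumor EVs and 3754 to 8030 RPM in normal EVs). Of the hepatocyte list 1 of 2 tested was called lower, and so was the 1 endothelial miRNA tested. Their part in the result was not tested.

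The make-up of the cluster differed between the EV groups. The 5 members together made up 12835 ± 832 RPM in tumor EVs and 7060 ± 3600 RPM in normal EVs (SD, n = 3 each). Of this sum miR-25-3p took 46.7 ± 0.31% in tumor EVs and 70.9 ± 0.74% in normal EVs. miR-93-5p took 32.2 ± 0.92% in tumor EVs and 15.1 ± 0.25% in normal EVs, and miR-106b-5p took 14.2 ± 1.10% in tumor EVs and 7.34 ± 0.94% in normal EVs. miR-106b-3p held 6.84 ± 0.21% in tumor EVs and 6.43 ± 1.04% in normal EVs. The spread of these shares between the libraries of a group was small, although the sum itself was 4418, 5600 and 11161 RPM in normal EVs 1, 2 and 3.

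**Figure D2:**
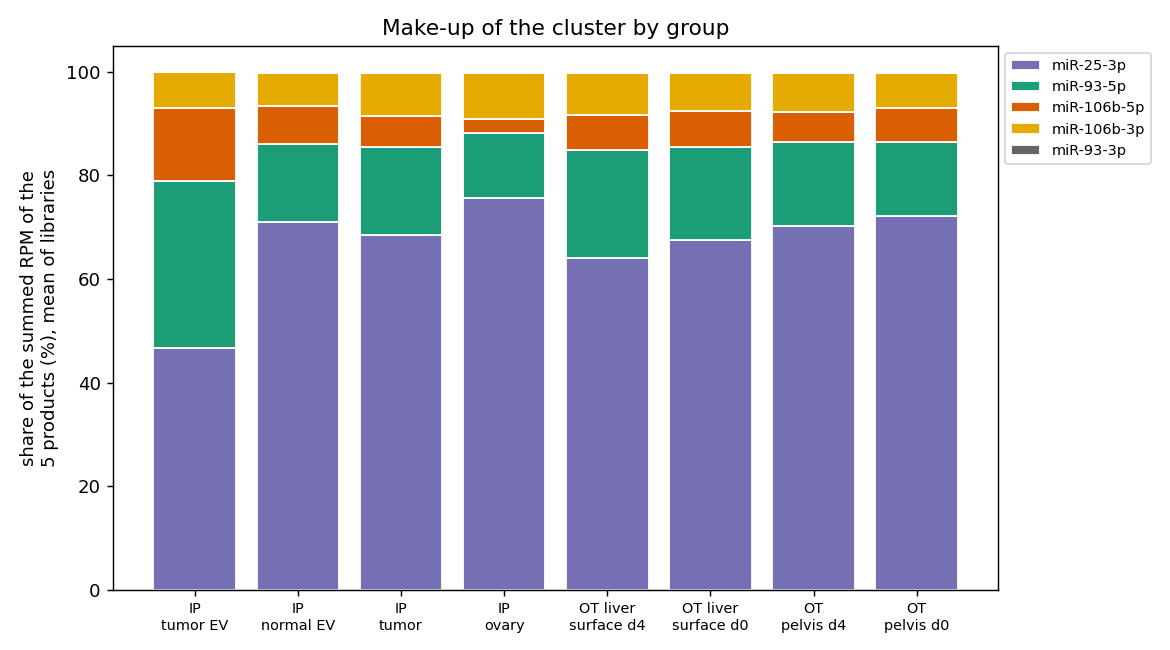
Share of each member, in percent, of the summed RPM of the 5 members, as 1 stacked bar per group that gives the mean over its libraries. The miR-25-3p segment at the bottom takes 46.7% in tumor EVs and 70.9% in normal EVs, and that of miR-93-3p is too thin to see.

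Ratios within a library, which depend neither on its depth nor on the scaling, showed the same separation. The ratio of miR-25-3p to miR-93-5p, the guides of neighbouring hairpins, was 1.45, 1.50 and 1.41 in tumor EVs, against 4.84, 4.60 and 4.65 in normal EVs. The groups did not overlap, and the mean log2 ratio, with 10 RPM added to each level, differed by -1.68. The exact permutation p, two-sided, was 0.1, the smallest that 3 against 3 libraries allow, and 0.213 after adjustment over the 32 ratio comparisons. The duplex of the first hairpin also separated the groups, as miR-106b-5p stood to miR-106b-3p as 2.16, 2.24 and 1.82 in tumor EVs, against 1.07, 1.56 and 0.903 in normal EVs (log2 difference 0.85, exact permutation p = 0.1, adjusted 0.213). miR-93-5p to miR-106b-5p, the members with a common seed, was 2.19, 2.10 and 2.57 in tumor EVs, against 2.17, 1.82 and 2.24 in normal EVs, and the groups overlapped.

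**Figure D3:**
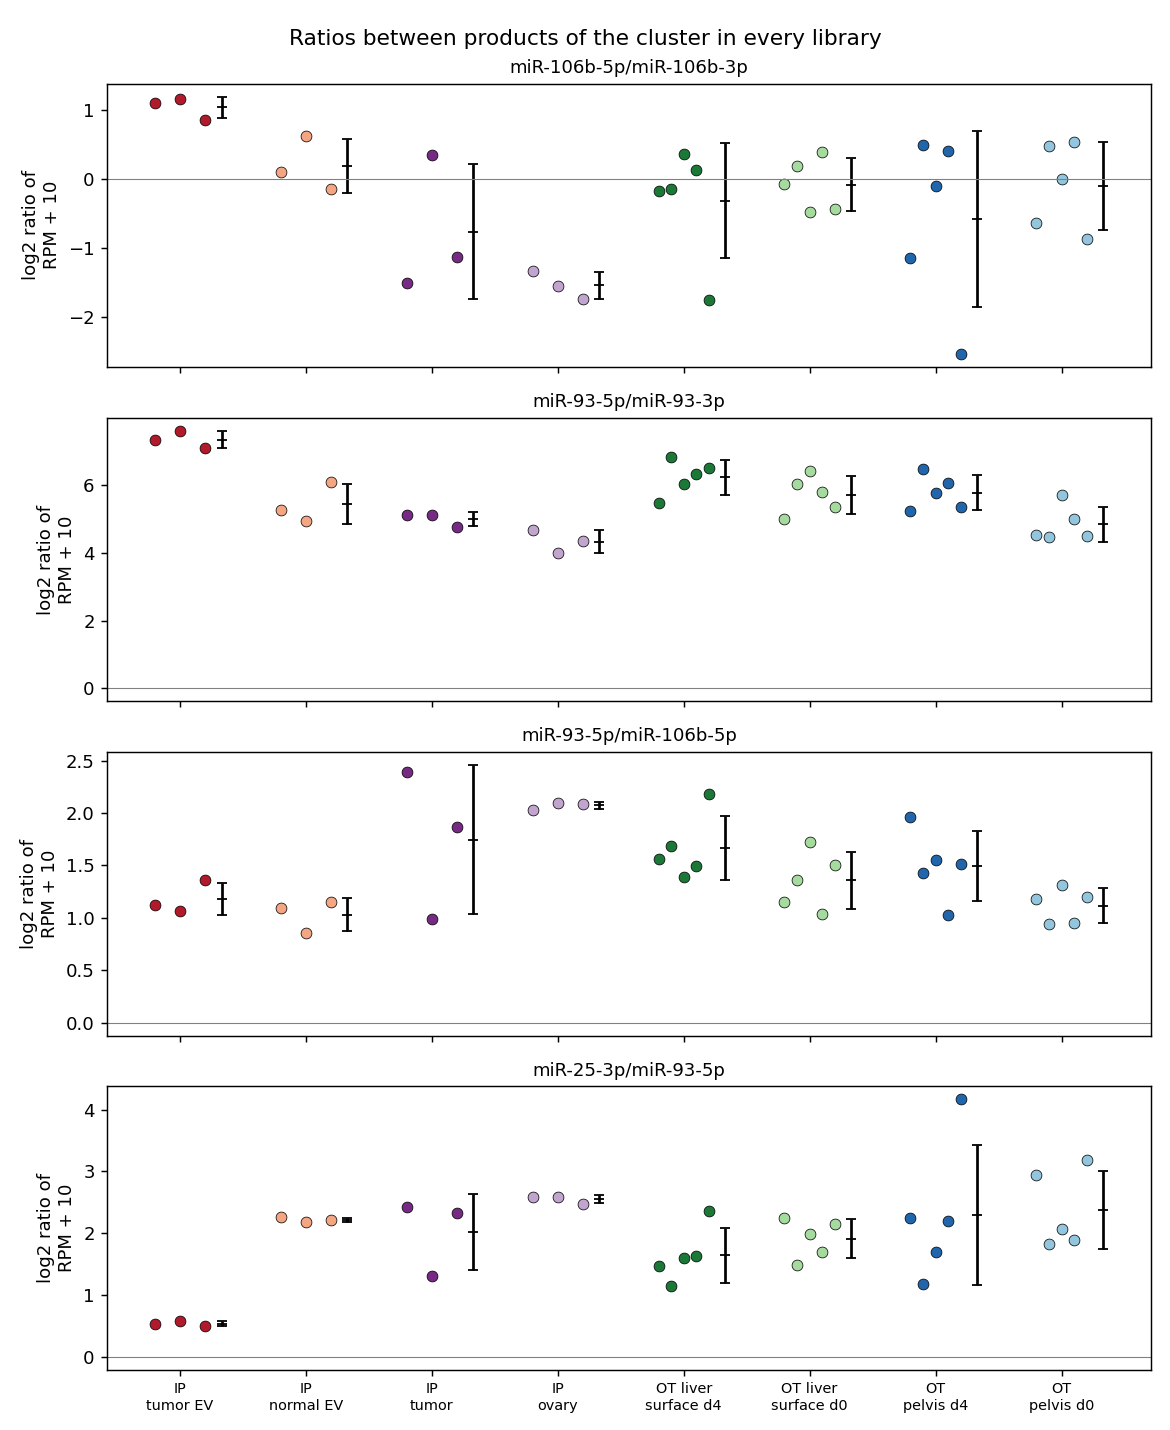
Log2 ratios between members, with 10 RPM added to each level, in the 32 libraries, 1 panel per ratio. Points are libraries, and the bar beside each group is its mean with 1 SD. For miR-25-3p to miR-93-5p the tumor EV libraries lie below the normal EV libraries (RPM ratios of 1.41 to 1.50 and of 4.60 to 4.84), and pelvic peritoneum day 4 replicate 5 stands alone (18.1).

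In tissue the summed level of the cluster was 4025 ± 855 RPM in tumors and 2890 ± 414 RPM in ovaries, and no member passed both thresholds. miR-106b-5p had 120, 351 and 157 RPM in tumor tissue, against 76.3, 66.3 and 94.97 RPM in ovary. miR-93-5p had 673, 705 and 599 RPM in tumor tissue, against 343, 316 and 437 RPM in ovary. Tumor libraries were all above ovary libraries for both, and tumor tissue replicate 2 was the highest. The log2 fold changes were 1.17 (SE 0.41, adjusted p = 0.0691 by limma) and 0.84 (SE 0.23, adjusted p = 0.0309), so that miR-106b-5p missed the p threshold and miR-93-5p the fold threshold. Without tumor tissue replicate 3 they were 1.29 (adjusted p = 0.0876) and 0.91 (0.0396).

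miR-106b-3p had 360, 275 and 358 RPM in tumor tissue, against 209, 215 and 342 RPM in ovary (0.39, adjusted p = 0.327). miR-25-3p had 3643, 1770 and 3033 RPM in tumor tissue, against 2120, 1956 and 2469 RPM in ovary (0.31, 95% interval -0.40 to 1.02, adjusted p = 0.468). Both groups of libraries overlapped. None of the 5 members was called in tissue, with or without tumor tissue replicate 3, where 13.2% of the 357 miRNAs tested were called higher, and 2 members did not overlap, against 24.6% of all. At an unadjusted p under 0.05 there were 2 members, and edgeR and DESeq2 each called 1, miR-106b-5p. The leukocyte list had 3 of 4 members called higher here. Its sums were 982 to 1854 RPM in tumor tissue and 496 to 752 RPM in ovary. Hepatocyte sums were 7883, 12532 and 734 RPM in tumor tissue 1, 2 and 3 and 463 to 599 RPM in ovary. The 2 hepatocyte miRNAs tested had a median log2 fold change of 2.71 beside -0.05 for all miRNAs, and 0 were called. Of the muscle list 1 of 3 was called higher and 1 lower, and of the endothelial list 1 of 2 lower. The part of these lists in the values was not tested.

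Whether the tumor difference is larger in EVs than in tissue was tested by an interaction term over the 12 IP libraries. Both EV groups were of the peritoneum, whereas the tissue groups were tumor and ovary. In tissue the effect of tumor and the difference from ovary as an organ cannot be told apart. For miR-93-5p the difference of the effects was 1.21 (SE 0.43, adjusted p = 0.0395 by limma), and 1 of 5 members was called higher, against 13.7% of 422 miRNAs. The call was lost when any 1 of 10 of the 12 libraries was left out (adjusted p up to 0.0911), the exceptions being normal EV replicate 3 and tumor tissue replicate 2. Without tumor tissue replicate 3 it was 1.14 (adjusted p = 0.0723). Without normal EV replicate 3, miR-106b-3p was called as well (1.16, adjusted p = 0.0135). For miR-106b-5p the difference was 0.73 (adjusted p = 0.312), for miR-106b-3p 0.67 (0.335) and for miR-25-3p 0.06 (0.935).

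Next, EVs were set against tissue of the same condition. These groups also differ in the RNA kit, as EV RNA and tissue RNA were purified with different products, and kit and source cannot be told apart. In tumor-bearing mice, 4 of 5 members were called higher in EVs than in tumor tissue, where 23.9% of 351 miRNAs were, and the same 4 did not overlap, against 33.3% of all. miR-106b-5p differed most, with 1742, 1965 and 1732 RPM in tumor EVs, against 120, 351 and 157 RPM in tumor tissue. The log2 difference, 3.19 (SE 0.38, adjusted p = 0.000647 by limma), was the fourth highest of the 351. miR-93-5p followed with 2.63 (SE 0.17, adjusted p = 0.000149, rank 13), then miR-106b-3p with 1.39 (SE 0.20, adjusted p = 0.00140) and miR-25-3p with 1.15 (SE 0.29, adjusted p = 0.0125). The same number of members was called without tumor tissue replicate 3, and miR-106b-5p then had 3.07. The call of miR-25-3p was lost without tumor EV replicate 2 (adjusted p = 0.0540 by limma) or replicate 3 (0.0514), and without tumor tissue replicate 2, where its log2 difference was 0.85.

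In normal mice, 3 of 5 members were called higher in EVs than in ovary, where 35.9% of 390 miRNAs were. These were miR-106b-5p (302, 472 and 755 RPM in normal EVs, against 76.3, 66.3 and 94.97 RPM in ovary), which differed by 2.46 on the log2 scale (SE 0.36, adjusted p = 0.000623 by limma), miR-93-5p with 1.42 (SE 0.36, adjusted p = 0.00862) and miR-25-3p with 1.09 (SE 0.34, adjusted p = 0.0207). The same 3 did not overlap, against 44.9% of all miRNAs. Only the call of miR-106b-5p was kept under median-of-ratios scaling, edgeR, DESeq2 and a miR-451a covariate, each of which left 1 member called. Without normal EV replicate 3, miR-106b-5p and miR-93-5p had 2.13 and 1.03 and stayed called, and miR-25-3p fell under the fold threshold (0.70). miR-25-3p also lost its call without ovary replicate 1 (adjusted p = 0.0614 by limma) or replicate 2 (0.0668).

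In the IP model the arms of the first hairpin stood in different ratios in EVs and tissue. miR-106b-5p to miR-106b-3p was 0.333, 1.28 and 0.439 in tumor tissue and 0.366, 0.309 and 0.278 in ovary, so that the 3p arm was the more abundant in 5 of the 6 tissue libraries, while the 5p arm was in 5 of the 6 IP EV libraries. The log2 difference was 1.81 for tumor EVs over tumor tissue and 1.74 for normal EVs over ovary, with no overlap in either (exact permutation p = 0.1 each, adjusted 0.213). In the OT groups, which are all EVs, the mean ratio was 0.855 to 1.01. Single OT libraries ran from 0.167 to 1.46 and overlapped those of tissue. miR-93-5p to miR-106b-5p was 2.17, 1.82 and 2.24 in normal EVs, against 4.49, 4.76 and 4.60 in ovary, again with no overlap (log2 difference -1.04, exact permutation p = 0.1, adjusted 0.213).

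Cell-type markers also differed between EVs and tissue. Of all 351 miRNAs tested, 84 were called higher in tumor EVs than in tumor tissue and 82 lower. All 4 leukocyte miRNAs were called higher in tumor EVs than in tumor tissue (sums of 3830 to 4082 RPM in tumor EVs and 982 to 1854 RPM in tumor tissue) and all 5 epithelial ones lower (299 to 609 RPM in tumor EVs and 1934 to 15253 RPM in tumor tissue). Of the red blood cell list 2 of 7 were called higher, with sums of 4525 to 9228 RPM in tumor EVs and 903 to 2511 RPM in tumor tissue. Both endothelial miRNAs were called lower, with sums of 43.5 to 91.8 RPM in tumor EVs and 21093 to 26262 RPM in tumor tissue. Of the muscle list 1 of 3 was called lower, and of the hepatocyte list 0 of 2 tested were called (median log2 -2.12). Hepatocyte sums were 1450 to 1582 RPM in tumor EVs and 734 to 12532 RPM in tumor tissue. With miR-451a as a covariate, a choice made after seeing the data, 1 member stayed called, miR-93-5p (2.63, adjusted p = 0.0247 by limma), whereas miR-106b-5p had 2.13 (adjusted p = 0.122). The part of leukocytes, epithelium, endothelium, muscle and hepatocytes was not tested.

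In normal EVs over ovary all 4 leukocyte miRNAs were called higher as well, with sums of 11964 to 36909 RPM in normal EVs and 496 to 752 RPM in ovary and a median log2 fold change of 5.11 beside 0.50 for all miRNAs. All 5 epithelial miRNAs were called lower (2006 to 3856 RPM in normal EVs and 8089 to 18429 RPM in ovary), as were both endothelial ones (397 to 1155 RPM in normal EVs and 45165 to 48717 RPM in ovary). Of all 390 miRNAs tested, 140 were called higher and 90 lower. Of the other lists, 2 of 3 muscle, 1 of 2 tested hepatocyte and 1 of 7 red blood cell miRNAs were called higher. The red blood cell sums were 3459 to 134765 RPM in normal EVs and 1472 to 4643 RPM in ovary. The part of these cell types in the members' values was not tested, apart from the miR-451a covariate given above.

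**Figure D4:**
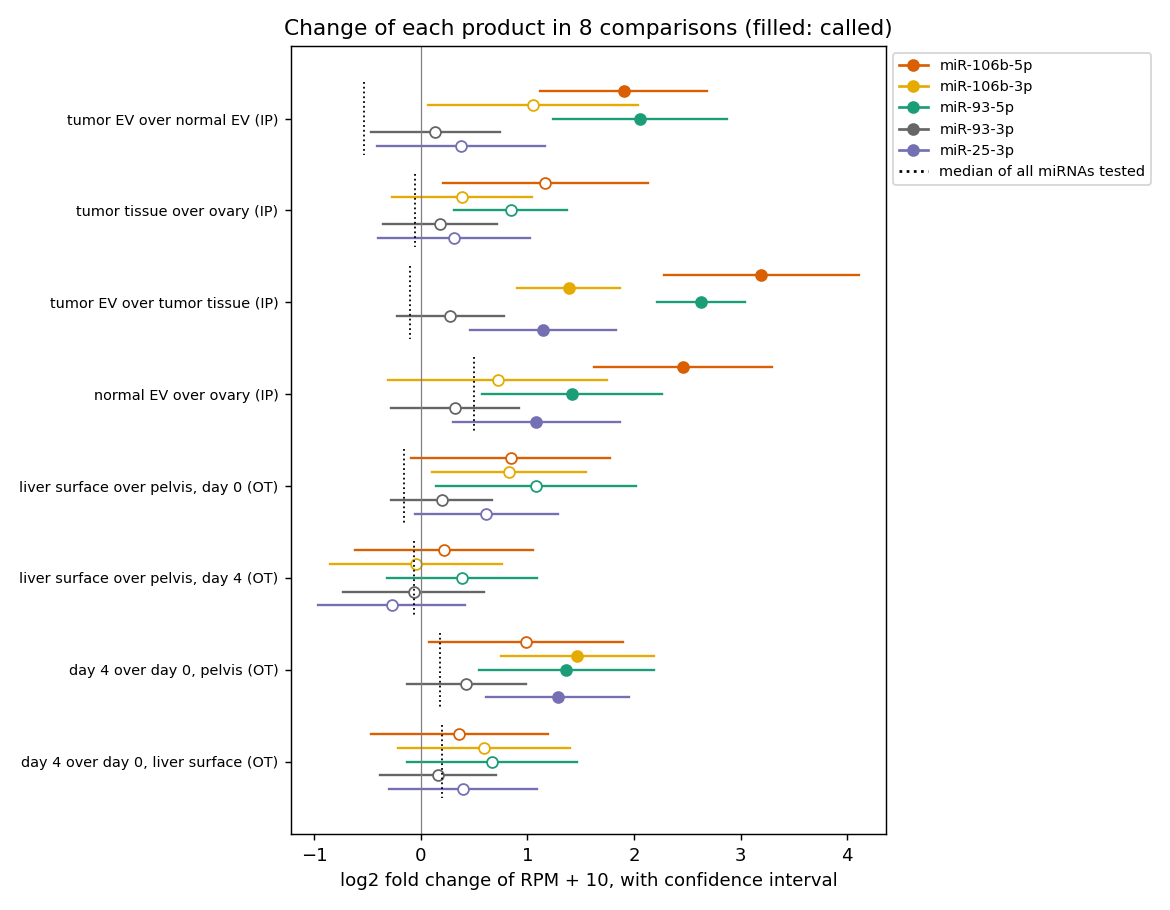
Log2 fold changes on the log2(RPM + 10) scale with 95% intervals (horizontal lines) from limma, for the 5 members in the 8 comparisons of 2 groups, where a dotted line is the median of all miRNAs tested. Filled markers are called, as for 2 members in tumor over normal EVs, 4 in tumor EVs over tumor tissue, 3 in normal EVs over ovary and 3 in day 4 over day 0 on the pelvic peritoneum, and open markers are not.

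In the orthotopic model the days were compared at each site. On the pelvic peritoneum, 3 of 5 members were called higher on day 4 than on day 0, where 18.9% of the 403 miRNAs tested were. The members with the largest differences here were miR-106b-3p and miR-93-5p, followed by miR-25-3p. miR-106b-3p had 807, 745, 800, 655 and 1973 RPM on day 4, against 272, 250, 484, 317 and 333 RPM on day 0. miR-25-3p had 6832, 6428, 7125, 8237 and 17458 RPM on day 4, against 3126, 2473, 5134, 3382 and 3880 RPM on day 0. All day 4 libraries of both were above all day 0 libraries, which held for 13.4% of all miRNAs, and replicate 5 was far above the other day 4 libraries. The log2 fold changes were 1.47 (SE 0.33, adjusted p = 0.00573 by limma) and 1.28 (SE 0.31, adjusted p = 0.00791).

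miR-93-5p had 1425, 2828, 2181, 1788 and 962 RPM on day 4 of the pelvic peritoneum, against 399, 686, 1222, 901 and 420 RPM on day 0 (1.37, SE 0.38, adjusted p = 0.0166 by limma). miR-106b-5p had 359, 1047, 740, 872 and 330 RPM on day 4, against 170, 353, 485, 461 and 178 RPM on day 0 (0.99, SE 0.42, adjusted p = 0.107). Day 4 replicate 5, the highest library of miR-25-3p and miR-106b-3p, was the lowest of its group for these, and the days overlapped. Without it miR-106b-5p was called (1.20, adjusted p = 0.0376). With the pairs of equal replicate number, each of the 4 abundant members was higher on day 4 in 5 of 5. The share of all miRNAs with this count was not computed, and a pair is not shown to be 1 mouse.

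The red blood cell list rose with these members. All 7 of its miRNAs were called higher on day 4 of the pelvic peritoneum, with a median log2 fold change of 3.43 beside 0.18 for all miRNAs, and miR-451a had 3.43 (SE 0.98, adjusted p = 0.0179 by limma). Its sums were 28805, 60928, 61872, 95304 and 114003 RPM on day 4, against 792, 1392, 56565, 20367 and 5113 RPM on day 0. With miR-451a as a covariate, none of the members was called, at 0.99 for miR-106b-3p (adjusted p = 0.189), 0.77 for miR-25-3p (0.255) and 0.74 for miR-93-5p (0.412). Other lists had lower medians on day 4, when 21 of all 403 miRNAs tested were called lower. Of the hepatocyte list 1 of 2 tested, of the muscle list 1 of 3 and of the epithelial list 1 of 5 were called lower, with median log2 fold changes of -0.95, -1.08 and -0.95. None of the 4 leukocyte or 2 endothelial miRNAs was called (medians of -0.63 and -0.46), and the part of these lists was not tested. Within library series NGS001, with 3 libraries per day, miR-106b-3p stayed called (1.09, adjusted p = 0.0394), while miR-93-5p had 1.21 (0.0772) and miR-25-3p 0.96 (0.0368). Within NGS002, with 2 libraries per day, 0 members were called, at 2.03, 1.60 and 1.77 for miR-106b-3p, miR-93-5p and miR-25-3p (adjusted p of 0.254 to 0.343).

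On the liver surface none of the members passed between the days. miR-93-5p had 1984, 2843, 2135, 2338 and 2079 RPM on day 4, against 650, 2117, 2292, 1907 and 934 RPM on day 0 (0.67, 95% interval -0.13 to 1.47, adjusted p = 0.234 by limma). miR-25-3p had 5503, 6299, 6524, 7236 and 10720 RPM on day 4, against 3104, 5983, 9099, 6225 and 4205 RPM on day 0 (0.40, adjusted p = 0.435). Replicates 1 and 5 on day 0 lay below every day 4 library for both, and the days overlapped through day 0 replicates 2 and 3 for miR-93-5p and 2, 3 and 4 for miR-25-3p. Of the other members, miR-106b-3p had 0.60 (adjusted p = 0.300) and miR-106b-5p 0.36 (adjusted p = 0.556). In all, 0 of 5 members were called, with 0 at an unadjusted p under 0.05 and 0 by edgeR and DESeq2, where 15.5% of 407 miRNAs were called higher. The red blood cell sums were 30588 to 85541 RPM on day 4 and 3741 to 140258 RPM on day 0, and 0 of 7 were called. Hepatocyte sums were 706 to 24965 RPM on day 4 and 5475 to 210384 RPM on day 0. Of this list 2 of 4 were called lower, and of the muscle list 1 of 3. Median log2 fold changes were -2.22 for hepatocyte, -1.82 for endothelial and -1.42 for muscle miRNAs, beside 0.20 for all. The part of these lists was not tested.

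The day effect itself was not shown to differ between the sites. The interaction over the 20 OT libraries was -0.89 for miR-25-3p (95% interval -1.82 to 0.04, adjusted p = 0.746 by limma), -0.87 for miR-106b-3p (0.771), -0.69 for miR-93-5p (0.898) and -0.62 for miR-106b-5p (0.965). It called 0 of 5 members, with 0 at an unadjusted p under 0.05 and 0 by edgeR and DESeq2, where 0.224% of 446 miRNAs were called higher and 0.224% lower.

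Set against the pelvic peritoneum on day 0, the liver surface had higher means of each member, within a wide spread. miR-93-5p had 650, 2117, 2292, 1907 and 934 RPM on the liver surface, against 399, 686, 1222, 901 and 420 RPM on the pelvic peritoneum. The liver surface was higher in 5 of 5 pairs of equal replicate number, and the groups overlapped. How many of all miRNAs had this count was not computed, and a pair is not shown to be 1 mouse. The log2 fold change was 1.08 (SE 0.43, adjusted p = 0.366 by limma), and a fit with replicate numbers as a block called it at the same size, with an adjusted p of 0.0210, as it was by DESeq2 (1.49, adjusted p = 0.0378). Within NGS001 the value was 0.89 and within NGS002 1.37.

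The other members had 0.84 (miR-106b-5p), 0.83 (miR-106b-3p), 0.62 (miR-25-3p) and 0.20 (miR-93-3p). In all, 0 of 5 members were called between the sites on day 0, where 0.779% of 385 miRNAs were called higher, and 2 members had an unadjusted p under 0.05. edgeR called 0 members. In its own comparison of the sites, the study names miR-106b-3p and miR-93-5p among the miRNAs higher on the liver surface, at the same thresholds. It does not state whether those libraries were the day 0 libraries used here. Of these members only miR-93-5p was called here, by DESeq2 and with the replicate block. The block raised the calls over all miRNAs to 16 higher and 5 lower, against 3 and 3 without it. The red blood cell sums were 3741 to 140258 RPM on the liver surface and 792 to 56565 RPM on the pelvic peritoneum, and those of 4 hepatocyte miRNAs 5475 to 210384 RPM on the liver surface and 2906 to 5176 RPM on the pelvic peritoneum. With miR-451a as a covariate miR-93-5p differed by 0.34 (adjusted p = 0.975).

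On day 4 the sites were close. The log2 differences of liver surface over pelvic peritoneum were 0.39 for miR-93-5p (95% interval -0.32 to 1.09), 0.22 for miR-106b-5p (-0.62 to 1.05), -0.04 for miR-106b-3p (-0.85 to 0.77) and -0.27 for miR-25-3p (-0.96 to 0.42), with adjusted p from 0.830 to 0.983 by limma. None of the 5 members was called, with 0 at an unadjusted p under 0.05 and 0 by edgeR, DESeq2 or with the replicate block, and 0% of 424 miRNAs were called higher. These intervals leave room for differences of up to 1.09 on the log2 scale. The block called 2 higher and 5 lower over all miRNAs.

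Over the 32 libraries the members fell into 2 pairs that did not follow the hairpins. Correlations of log2(RPM + 10) are given as a description over libraries that share groups, scaling and a common total. Of 377 other miRNAs ranked, miR-93-5p was the closest to miR-106b-5p (Pearson r = 0.94), and miR-106b-3p the closest to miR-25-3p (0.94). Across the pairs, miR-93-5p and miR-106b-3p had 0.80 and miR-93-5p and miR-25-3p 0.72. The arms of the first hairpin, miR-106b-5p and miR-106b-3p, had 0.67, and miR-106b-5p and miR-25-3p 0.63. With group means subtracted the pairs kept 0.87 and 0.91, while miR-106b-5p had 0.14 with miR-106b-3p and 0.05 with miR-25-3p. miR-93-5p kept more of the link to the other pair, with 0.41 for miR-106b-3p and 0.32 for miR-25-3p. On the pelvic peritoneum, day 4 replicate 5 was the lowest of its group for miR-106b-5p (330 RPM) and the highest for miR-106b-3p (1973 RPM). On the liver surface, day 4 replicate 5 was so too (451 and 1550 RPM). The correlations were not computed without these libraries.

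The miRNAs outside the cluster with the closest pattern differed between the pairs in the same way. They were miR-20a-5p (0.94), miR-17-5p (0.94) and miR-15a-5p (0.85) for miR-106b-5p, and miR-17-5p (0.93), miR-20a-5p (0.92) and miR-18a-5p (0.85) for miR-93-5p. For miR-25-3p they were miR-451a (0.84), miR-486a-5p (0.81) and miR-486b-5p (0.81), all red blood cell miRNAs. miR-451a had 0.67 with miR-93-5p and 0.64 with miR-106b-5p. After subtraction of group means, miR-451a did not separate the pairs. It then had 0.74 with miR-93-5p, 0.72 with miR-106b-3p, 0.67 with miR-25-3p and 0.64 with miR-106b-5p. With group means subtracted the closest were miR-186-5p (0.91), miR-16-5p (0.87) and miR-17-5p (0.83) for miR-106b-5p, miR-15b-3p (0.90), miR-186-5p (0.88) and miR-17-5p (0.87) for miR-93-5p, and miR-486a-3p (0.82), miR-486b-3p (0.80) and miR-486a-5p (0.76) for miR-25-3p.

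**Figure D5:**
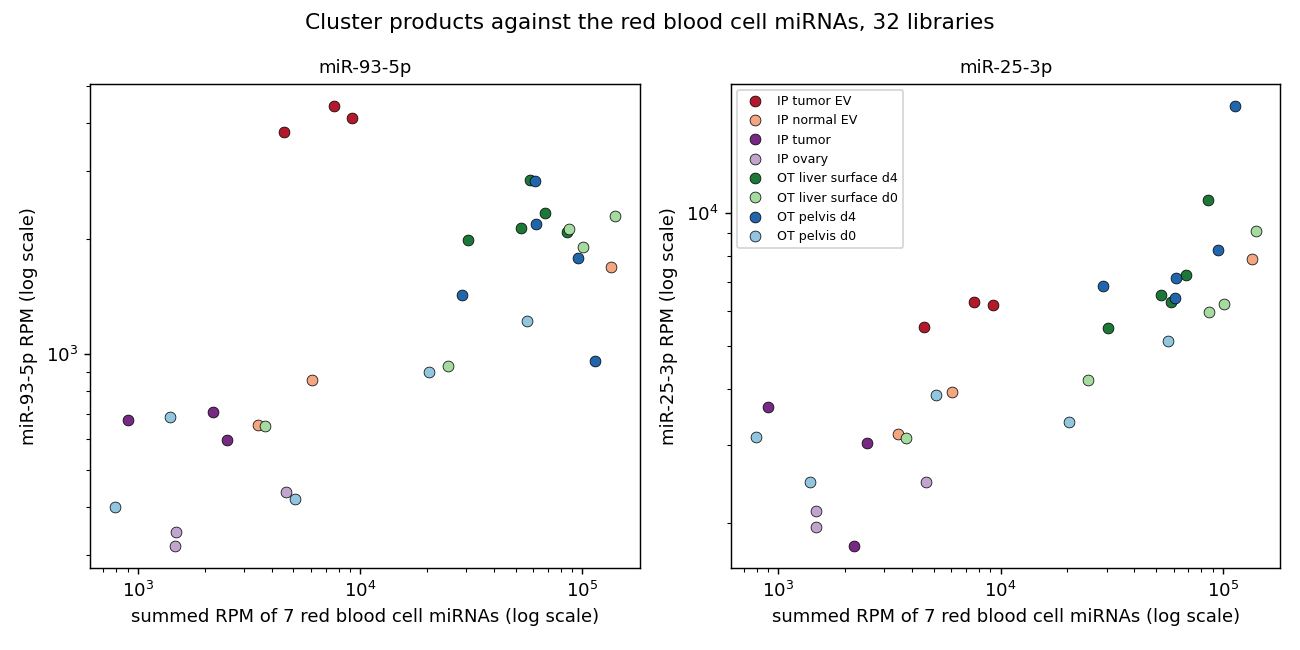
RPM of miR-93-5p (left) and of miR-25-3p (right) against the summed RPM of the 7 red blood cell miRNAs, both on log axes, with a point per library coloured by group. Normal EV replicate 3, with a red blood cell sum of 134765 RPM, holds 7864 RPM of miR-25-3p. Pelvic peritoneum day 0 replicate 3, with a sum of 56565 RPM, holds 5134 RPM of it. Tumor EVs hold the highest miR-93-5p at sums of 4525 to 9228 RPM.

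The relatives by seed were compared with the members in the same fits. Outside the cluster 5 miRNAs of the table carried the AAAGUGC seed, of which miR-6383 was listed at 0 in every library and was not on the list compared. In tumor over normal EVs, 3 of the other 4 were tested and 2 were called higher, where 16.1% of all miRNAs were. These were miR-20a-5p (1.69, adjusted p = 0.000192 by limma) and miR-17-5p (1.40, adjusted p = 0.000737), both guides of the miR-17-92 cluster on chromosome 14. miR-20b-5p had 0.27 (adjusted p = 0.258). Of the 4 others tested with the AUUGCAC seed, 0 were called higher, with a median of -0.65, and miR-92a-3p, the most abundant, had -0.86 (adjusted p = 0.0256). In tissue, 0 of 2 and 0 of 3 were called higher, and 1 of the AUUGCAC group was lower. The EV minus tissue interaction called 2 of 3 with the AAAGUGC seed higher, where 13.7% of all miRNAs were. These were miR-20a-5p (1.45) and miR-17-5p (1.01), and miR-92a-3p had -0.06 (adjusted p = 0.903 by limma).

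In tumor EVs over tumor tissue, 2 of 3 tested relatives with the AAAGUGC seed were called higher, where 23.9% of all miRNAs were, miR-20a-5p with 3.10 and miR-17-5p with 2.53, and miR-20b-5p had 1.00 and was just under the fold threshold. In normal EVs over ovary 2 of 2 tested were called higher, where 35.9% of all miRNAs were, with 1.65 and 1.52 for miR-20a-5p and miR-17-5p. miR-92a-3p had 0.56 (adjusted p = 0.0859 by limma) and 0.62 (0.0365) in these. Between the days on the pelvic peritoneum, 0 of 3 with the AAAGUGC seed and 2 of 4 with the AUUGCAC seed were called higher. The share of all miRNAs was 18.9%, and miR-92a-3p was called with 1.14 (adjusted p = 0.00782 by limma). The 14 products of the paralogous clusters miR-17-92 and miR-106a-363 include some of these relatives. Of them, 3 of 9 tested were called higher in tumor over normal EVs, against 16.1% of all miRNAs. In tumor EVs over tumor tissue 6 of 8 were (23.9% of all), and in normal EVs over ovary 6 of 8 (35.9% of all). On day 4 over day 0 of the pelvic peritoneum 1 of 10 was (18.9% of all). In the comparisons of tissues, of sites and of days on the liver surface 0 were.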

How the data were processed

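Small RNA-seq of 32 libraries was used, 12 of the IP model and 20 of the OT model. The RPM values were deposited for 1513 miRNAs. Per the study's methods, adapters were removed and reads assigned in CLC Genomics Workbench 9.5.3 against miRBase 22, allowing 2 mismatches. Of the miRNAs, 104 were 0 throughout. Each library summed to 1000000 RPM, and all values were whole multiples of the smallest one above 0 (100.0% within 0.001), so reads were recovered from the deposited RPM. No within-group pair of libraries was identical (0 of 52).

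Comparisons used limma 3.58.1 (trend, two-sided, R 4.3.3) on log2(RPM + 10) over every miRNA that reached 10 RPM in a number of libraries no smaller than that of the smaller group, with Benjamini-Hochberg adjustment over all of them. A call needed an adjusted p below 0.05 and a log2 size above 1. limma replaced the study's count test because the unit is RPM. edgeR 4.0.16 and DESeq2 1.42.0 on recovered reads were alternatives, as were other pseudocounts (1 and 50 RPM), a stricter filter (100 RPM) or none, scaling by the median of ratios, replicate numbers as a block, a joint fit of each model, the library series (within each, and as a covariate), and each library left out. A miR-451a covariate was added after seeing the data. Ratios were tested by exact permutation. Steps were tested on simulated reads.

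Replicate numbers were taken to pair libraries where every correlation of residuals was over 0.1. This held for IP EVs (3 pairs, 0.169 to 0.271), normal EVs and ovary (0.182 to 0.255), the sites on day 0 (5 pairs, 0.397 to 0.704) and on day 4 (0.119 to 0.737) and the pelvic peritoneum days (0.189 to 0.631). It does not show that a pair is 1 mouse. In IP EVs a pair joins a tumor-bearing and a normal mouse. The members, the lists of seed relatives, paralogous clusters and cell markers (red blood cell, leukocyte, epithelial, muscle, hepatocyte, endothelial) and the tests were chosen with earlier results of these data known. The text names all members and up to 3 leading members of a list. It also names the 3 miRNAs with the closest pattern to each of miR-106b-5p, miR-93-5p and miR-25-3p. Sequences are from RefSeq (GRCm38.p6) and gene models from GENCODE M21.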

Additional observations from a re-analysis of the deposited data

Results flagged for a closer look

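On day 4 of the pelvic peritoneum, replicate 5 stood far from the other 4 libraries for miR-106b-3p, at 1973 RPM against 655 to 807 RPM, and for miR-25-3p, at 17458 RPM against 6428 to 8237 RPM. Its ratio of miR-25-3p to miR-93-5p was 18.1, against 2.27 to 4.79 in the others. The gap to the nearest library was too large a part of the range for 5 samples by Dixon's test, which marks about 1 in 20 groups by chance, and 36 groups were examined. The library had 145488 reads and the highest red blood cell sum of its group, 114003 RPM against 28805 to 95304 RPM, whose part in these values was not tested.

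The tumor effect on miR-93-5p differed between EVs and tissue by 1.21 on the log2 scale (adjusted p = 0.0395 by limma). It was 2.05 in EVs, with all 3 tumor libraries above all 3 normal ones, and 0.84 in tissue, with the same separation. The tissue value sets tumor against ovary, so tumor and organ cannot be told apart in it. The call was lost when any 1 of 10 of the 12 libraries was left out (0.92 to 1.31, adjusted p of 0.0562 to 0.0911), among them tumor tissue replicate 3, which held miR-202-5p at a level of ovary (1.14, adjusted p = 0.0723 without it), and it was lost with no filter (adjusted p = 0.0984). The difference was 1.81 under median-of-ratios scaling, which moved the overall median of this term by 0.49.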

How the results depend on the processing

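Over 205 alternatives the count of members called stayed within 1.5 times its value in 180. Exceptions were tumor tissue over ovary (1 with edgeR, DESeq2 and all IP libraries in 1 fit, against 0), tumor EVs over tumor tissue (1 with miR-451a as a covariate, against 4), normal EVs over ovary (1 with median-of-ratios scaling, edgeR, DESeq2 and the covariate, against 3), the sites on day 0 (1 with DESeq2 and with the replicate block, against 0), the pelvic peritoneum days (0 with the covariate, 1 within NGS001 and 0 within NGS002, against 3) and the EV minus tissue interaction (0 with no filter and 0 to 2 with 1 library left out, against 1). The block changed no other count by over 1.5 times, and the remaining member it called was miR-106b-3p in tumor over normal EVs. In tumor tissue over ovary, tumor EVs over tumor tissue and the liver surface days the numbers were not taken to pair libraries, as residuals correlated over 0.1 in some pairs only.

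Of 1015 member fold changes under alternatives, 923 kept direction and call, 38 lost and 13 gained a call, and 41 turned sign, all in values that were not called. These were miR-106b-3p in normal EVs over ovary (-0.29 with the covariate) and between sites on day 4 (0.021 by median-of-ratios scaling, 0.0038 by edgeR, 0.063 with the covariate, 0.018 within NGS002, -0.25 to 0.23 with 1 library left out), and miR-106b-5p (-0.0084, -0.084 and -0.17 by median-of-ratios scaling, edgeR and DESeq2) and miR-25-3p (-0.017 and -0.082 by edgeR and DESeq2) between liver surface days. miR-93-3p turned in normal EVs over ovary (-0.0087 by edgeR), between sites on day 4 (0.0093 by edgeR, 0.013 by DESeq2, 0.022 within NGS001, -0.21 to 0.031 with 1 left out), between liver surface days (-0.092, -0.052 and -0.12 by median-of-ratios scaling, edgeR and DESeq2, -0.18 within NGS002) and in the EV minus tissue interaction (0.26, 0.77 and 0.43 in the same order, and -0.25 to 0.16 with 1 left out). With 1 library left out it spanned -0.072 to 0.29 in tumor over normal EVs and -0.022 to 0.31 in tissue, and the interaction of miR-25-3p spanned -0.24 to 0.45. The causes were not tested.

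Of 320 ratio alternatives 12 turned sign, all with 1 library left out. miR-106b-5p to miR-106b-3p spanned -0.18 to 0.17 and -0.23 to 0.62 between sites on day 0 and day 4, -0.75 to 0.0095 between pelvic peritoneum days (0.0095 without day 4 replicate 5) and -0.40 to 0.13 between liver surface days. miR-93-5p to miR-106b-5p spanned -0.65 to 0.055 in tissue, and miR-25-3p to miR-93-5p -0.55 to 0.20 between pelvic peritoneum days.

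Calls over all miRNAs, higher and lower, were 83 and 94 under median-of-ratios scaling against 61 and 136 in tumor over normal EVs, 91 and 112 against 140 and 90 in normal EVs over ovary, 58 and 51 against 76 and 21 between pelvic peritoneum days and 44 and 37 against 63 and 12 between liver surface days. With edgeR they were 75 and 103 against 84 and 82 in tumor EVs over tumor tissue. That scaling moved the overall median by 0.51, -0.47, -0.29, -0.29 and 0.15 in these. Depth limits miR-93-3p, at 2 to 42 reads a library.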
